A study of Mus musculus with 6 samples.

Results

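Choroid plexus epithelium lines fronds that hang inside the brain ventricles, where it secretes cerebrospinal fluid, carries vitamins and hormones into that fluid and closes the border to the blood with tight junctions. It is not a part of the cortex itself, but it lies close to it, and its epithelial cells hold very large amounts of a few transcripts, above all that of transthyretin. The values of 10 genes known for this epithelium, Ttr, Folr1, Kl, Enpp2, Prlr, Aqp1, Slc4a5, Clic6, Cldn2 and Otx2, are described here in RNA from dissected mouse cortices. The genes were chosen by symbol among the 24972 rows of the deposited table, with the normalized counts of these same libraries already seen, so their levels and differences are given as a description and are not tested. All 10 were found in the table and all 10 had a value of at least 10 normalized counts in at least 3 libraries.

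Total RNA came from cortices at postnatal day (P) 7, in 3 libraries from wildtype mice and 3 from mice labelled Zmiz1-KO (the KO-labelled libraries). Wildtype mice were Zmiz1f/f and the others Zmiz1f/f;Emx1Cre, so that both groups carried the floxed allele and only the latter carried Cre recombinase, which is active where Emx1 is expressed, in the progenitors of the cortex. Neither the litter nor the sex of the mice is in the labels, and whether each library came from 1 mouse is not stated, so the spread between libraries may be in part technical.

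The sum of normalized counts per library ranged from 32661979 to 33239707, and dividing each sum by the value of 1 read, as judged from the lowest values, gave an estimate of 15494889 to 17858391 counted reads. Zmiz1 itself went against its label, with 7461 to 8119 normalized counts in the 3 wildtype libraries and 9660 to 9944 in the KO-labelled libraries, so each group goes by its label here, as wildtype and KO-labelled, throughout. The table gives a single value for the whole gene, which cannot show whether its floxed part was deleted. By Xist and the Y-linked gene Ddx3y, each group held 1 female library, wildtype replicate 3 and KO-labelled replicate 2. Over all 15800 genes tested, 65, or 0.411%, passed an adjusted p of 0.05 between the groups (limma). Genes of cortical neurons were high in all 6 libraries, with a sum of 36286 to 45053 normalized counts over 8 such genes.

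Promoter windows are shown for 4 members of different roles, Slc4a5, Cldn2 and Kl, which shared the library pattern described below, and Otx2, which departed from it in 1 library, so that the start of each gene can be seen beside its values. The RefSeq table on GRCm38.p6 held 11 windows of 300 bases, 250 before and 50 after a transcription start, for 6 of the 10 genes (Kl, Prlr, Aqp1, Slc4a5, Cldn2 and Otx2). Entries for Ttr, Folr1, Clic6 and Enpp2 were missing. A pair of short motifs, which share no window position here, were searched on both strands: TATAAA, the core of a TATA box, which reads TTTATA on the other strand, and TAATCC, which reads GGATTA on the other strand, the core bound by homeobox factors of the Otx type. Capitals mark a match. 
Slc4a5, chr6:83237125-83237424, plus strand: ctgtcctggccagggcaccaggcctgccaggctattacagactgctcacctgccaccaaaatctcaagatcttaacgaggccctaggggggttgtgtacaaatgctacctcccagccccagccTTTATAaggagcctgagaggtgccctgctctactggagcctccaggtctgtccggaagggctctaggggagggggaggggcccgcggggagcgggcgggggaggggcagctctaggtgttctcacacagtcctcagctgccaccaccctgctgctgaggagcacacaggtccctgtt
Cldn2, chrX:139800558-139800857, plus strand: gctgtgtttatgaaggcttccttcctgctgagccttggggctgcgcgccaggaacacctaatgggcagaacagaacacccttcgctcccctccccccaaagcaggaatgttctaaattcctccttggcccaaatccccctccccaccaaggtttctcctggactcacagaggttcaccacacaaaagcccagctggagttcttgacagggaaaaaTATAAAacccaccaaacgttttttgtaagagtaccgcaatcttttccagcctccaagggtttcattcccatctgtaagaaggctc
Otx2, chr14:48665060-48665359, minus strand: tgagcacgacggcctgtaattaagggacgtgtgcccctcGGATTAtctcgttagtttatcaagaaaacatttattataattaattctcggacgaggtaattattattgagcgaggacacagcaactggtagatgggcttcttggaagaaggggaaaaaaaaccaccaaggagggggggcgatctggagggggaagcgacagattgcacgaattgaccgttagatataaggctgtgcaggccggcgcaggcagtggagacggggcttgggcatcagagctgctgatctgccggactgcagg
Kl, chr5:150952357-150952656, plus strand: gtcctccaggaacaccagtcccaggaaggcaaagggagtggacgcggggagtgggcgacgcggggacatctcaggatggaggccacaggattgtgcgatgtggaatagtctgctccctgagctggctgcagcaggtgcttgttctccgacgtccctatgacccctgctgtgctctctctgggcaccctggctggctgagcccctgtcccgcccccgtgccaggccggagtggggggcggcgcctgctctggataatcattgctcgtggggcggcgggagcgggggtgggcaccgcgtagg

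The window of Cldn2 held TATAAA at base 216, 35 bases before the start, and that of Slc4a5 held it on the other strand at base 124, 127 bases before the start. TATAAA was present in 3 of the 11 windows, 1 each of 3 genes (Slc4a5, Cldn2 and, 192 bases before the start of a window not shown, Otx2), against 13.6% of all 32851 windows of this length. The Otx type core was found in 1 of the 11, a window of Otx2 itself, at base 40 on the other strand, against 7.06% of all windows. The window of Kl, with 19 CG pairs the one with the most among the 11, held neither motif. A match of a few letters is a description of the sequence and says nothing about binding, and the windows of Slc4a5 and Otx2 shown start inside the longer gene of the GENCODE annotation.

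Transthyretin, the carrier of thyroxine and of retinol-binding protein in cerebrospinal fluid, is the most abundant transcript of the epithelium. Ttr (GRCm38 chromosome 18, bases 20665280 to 20674321) had 98.8 normalized counts in wildtype replicate 1, 7728 in replicate 2 and 5871 in replicate 3. In KO-labelled replicates 1, 2 and 3 it had 2874, 89.8 and 4468 normalized counts. Each group therefore held 1 library with under 100 normalized counts and 2 with at least 2874, and the low libraries of both groups lay close together. Wildtype replicate 2 stood 78.2 times above wildtype replicate 1 (95% exact binomial interval of the ratio 59.3 to 106, from estimated reads and for counting error only). Of the 15800 tested genes, 49 had a ratio of highest to lowest wildtype library at least as large. These 49 include Ttr itself, Xist and genes listed at 0 in a wildtype library, such as Ddx3y. Between KO-labelled replicates 3 and 2 the ratio was 49.8, with an interval of 37.6 to 67.6. The wildtype mean was 4566 ± 3979 (SD, n = 3) and the KO-labelled mean 2477 ± 2216 (SD, n = 3), so that the SD of each group was nearly as large as its mean.

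On the log2 scale Ttr differed between the groups by -0.65 (standard error 2.65). This difference turned with the library left out, from -2.68 without wildtype replicate 1 to 0.46 without wildtype replicate 2, 0.26 without wildtype replicate 3 and 1.11 without KO-labelled replicate 2. The direction of Ttr between the groups was thus set by which libraries were counted. In tissue RNA, fewer cells of a type and less RNA per cell cannot be told apart, here and for every gene below.

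**Figure D1:**
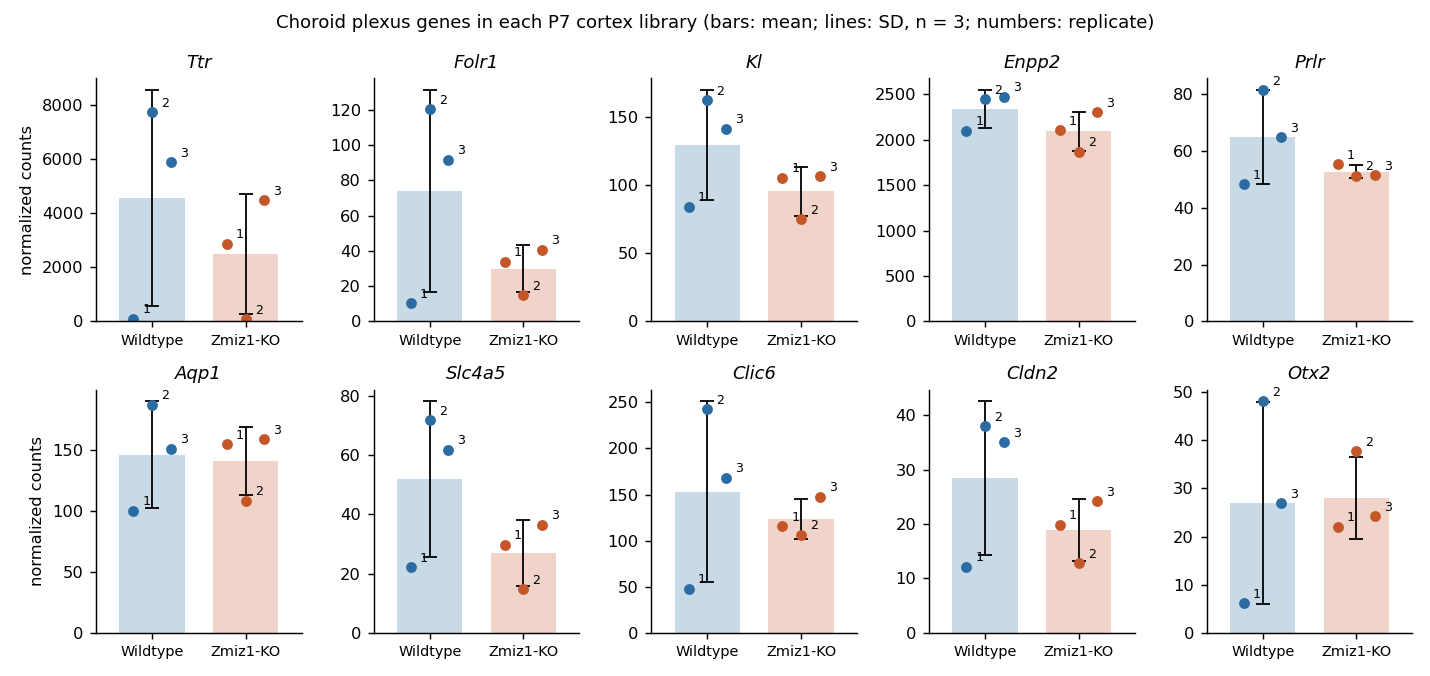
Normalized counts of the 10 choroid plexus genes (y axis, linear from 0, a scale of its own in each panel) in the 3 wildtype and 3 KO-labelled libraries. Bars are means, lines are SD (n = 3), and points carry the replicate number. Wildtype replicate 1 is the lowest wildtype point in all 10 panels. KO-labelled replicate 2 is the lowest of its group in 9 of them, by little for Prlr and Clic6, and the highest for Otx2.

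Folr1, on chromosome 7 from 101858331 to 101870788, encodes the folate receptor alpha that moves folate from blood into cerebrospinal fluid. It had 10.2, 120 and 91.7 normalized counts in replicates 1, 2 and 3 of wildtype and 33.8, 14.97 and 40.6 in KO-labelled replicates 1, 2 and 3. The same libraries were low as for Ttr. Inside wildtype the ratio of highest to lowest library was 11.8 (interval 4.84 to 38.3, with about 5 reads in the lowest library). Inside the KO-labelled libraries it was 2.71 (interval 1.17 to 7.25), and the intervals overlap. The group means were 74.1 ± 57.1 and 29.8 ± 13.3 (SD, n = 3 each), a log2 difference of -0.82 (standard error 1.13). It ran from -1.90 without wildtype replicate 1 to -0.18 without wildtype replicate 2, and kept its sign. Anapc15 overlaps Folr1 on the other strand, and the library kit does not mark strand, so reads of the overlap cannot be assigned to one of them.

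Kl and Enpp2 encode proteins with enzyme-like domains that are released into the fluid. Klotho, the product of Kl, is a co-receptor for fibroblast growth factor 23 and is shed from the cell surface. Kl, on chromosome 5 from 150952607 to 150993817, had 84.4, 163 and 142 normalized counts in the 3 wildtype libraries and 106, 74.96 and 107 in the KO-labelled ones. Wildtype replicate 1 and KO-labelled replicate 2 were again the lowest, but the ratio inside wildtype was only 1.93 (interval 1.31 to 2.87). Enpp2 encodes autotaxin, a secreted enzyme that makes lysophosphatidic acid, and is also used by oligodendrocytes and meningeal cells. On chromosome 15 from 54838901 to 54952892, Enpp2 had 2098, 2443 and 2473 normalized counts in wildtype and 2104, 1867 and 2301 in the KO-labelled libraries. It was high in every library and varied least of the 10 genes inside wildtype, with a ratio of 1.18, a value that 36.4% of tested genes reached or passed. The 10 oligodendrocyte genes summed to 7498 to 9324 normalized counts in wildtype and 7554 to 8242 in the KO-labelled libraries, and their part in the level of Enpp2 was not tested. Log2 differences were -0.40 (standard error 0.24) for Kl and -0.16 (standard error 0.086) for Enpp2. With each library left out in turn they ran from -0.68 to -0.21 for Kl and from -0.24 to -0.084 for Enpp2, lowest for both without wildtype replicate 1.

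Prlr, the prolactin receptor, which in this epithelium takes part in moving prolactin into the brain, lies on chromosome 15 from 10177238 to 10349180. Its values were 48.3, 81.3 and 64.8 normalized counts in wildtype and 55.3, 51.2 and 51.5 in the KO-labelled libraries. The wildtype values spanned a ratio of 1.68 (interval 1.00 to 2.97), while the KO-labelled ones lay within a ratio of 1.08 of each other and inside the wildtype range. Gm21973 overlaps Prlr on the same strand, and 0.83% of the 75-base stretches of Prlr also occur in other genes, most often Gm21973. The log2 difference was -0.26 (standard error 0.24), and ran from -0.46 without wildtype replicate 1 to -0.087 without wildtype replicate 2.

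Aqp1, Slc4a5 and Clic6 serve the movement of water and ions. Aqp1, the water channel of the apical membrane, lies on chromosome 6 from 55336432 to 55348555 and had 99.9, 187 and 151 normalized counts in wildtype and 155, 108 and 159 in the KO-labelled libraries. Its low libraries were those of Ttr, and the other values of both groups were mixed, with a log2 difference of -0.03 (standard error 0.23) that turned to 0.17 without wildtype replicate 2, 0.019 without wildtype replicate 3 and 0.15 without KO-labelled replicate 2. Aqp1 is also present in red cells and some endothelium. Slc4a5, a sodium bicarbonate cotransporter, lies on the same chromosome from 83219828 to 83304945. It had 22.1, 71.6 and 61.8 normalized counts in wildtype and 29.8, 14.6 and 36.4 in the KO-labelled libraries. Slc4a5 repeated the order of Kl and Ttr in all 6 libraries, with ratios of 3.24 (interval 1.61 to 7.10) inside wildtype and 2.49 (interval 1.03 to 6.61) inside the KO-labelled libraries. Its log2 difference of -0.85 (standard error 0.47) was the most negative of the 10 with all libraries kept. It ran from -1.37 without wildtype replicate 1, where Ttr and Folr1 were more negative still, to -0.48 without KO-labelled replicate 2.

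Clic6, a member of the chloride intracellular channel family, lies on chromosome 16 from 92485736 to 92541243. It had 47.9, 242 and 168 normalized counts in wildtype and 116, 106 and 148 in the KO-labelled libraries. Here wildtype replicate 1 stood alone below every other library, and KO-labelled replicate 2 was 2.22 times as high as it. The ratio inside wildtype was 5.06 (interval 3.22 to 8.17) and that inside the KO-labelled libraries 1.39. The log2 difference, -0.04 (standard error 0.70), ran from -0.72 without wildtype replicate 1 to 0.44 without wildtype replicate 2, and was also above 0 without wildtype replicate 3 (0.17) and without KO-labelled replicates 1 (0.0013) or 2 (0.060).

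Cldn2, a claudin that forms cation-permeable tight junctions, lies on the X chromosome from 139800828 to 139811386. It had 12.1, 38.0 and 35.0 normalized counts in wildtype and 19.9, 12.7 and 24.1 in the KO-labelled libraries. Its order of libraries was that of Folr1 and Clic6, with a ratio of 3.13 (interval 1.198 to 9.70) inside wildtype from about 6 and 18 reads and a log2 difference of -0.45 (standard error 0.44) that ran from -0.96 without wildtype replicate 1 to -0.17 without wildtype replicate 2. These reads are few, and the interval of the ratio inside the KO-labelled libraries (1.89, interval 0.688 to 5.68) spans 1.

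Otx2, the homeobox transcription factor that specifies this epithelium and is secreted from it, lies on chromosome 14 from 48657677 to 48673819. It had 6.10, 48.1 and 26.9 normalized counts in wildtype and 22.0, 37.8 and 24.2 in the KO-labelled libraries. Otx2 was the member that departed from the others: wildtype replicate 1 was again the lowest library, at about 3 reads, but KO-labelled replicate 2 was the highest of its group. The ratio inside wildtype was 7.88, with an interval of 2.43 to 41.9 that reflects how few reads the lowest library held. The log2 difference was 0.40 (standard error 0.65), the only positive one of the 10, and turned to -0.39 without wildtype replicate 1. Gm49154 on the same strand and Otx2os1 on the other overlap Otx2, so part of its reads may be shared with them.

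Per kilobase of exon, the scale on which levels of different genes can be compared, wildtype means ran from 4.22 for Prlr to 3850 for Ttr. Enpp2 followed Ttr at 405 normalized counts per kilobase, then came Aqp1 (55.5), Clic6 (39.1), Folr1 (32.2), Kl (13.9), Slc4a5 (8.93), Cldn2 (8.54) and Otx2 (6.40). In wildtype replicate 1 the order at the top changed, since Ttr was at 83.3 and Enpp2 at 363 normalized counts per kilobase. The same held in KO-labelled replicate 2, at 75.7 for Ttr and 323 for Enpp2. From Aqp1 down, neighbours in this order differed by less than the larger of their wildtype SDs (for Aqp1 and Clic6, 16.6 and 25.1 normalized counts per kilobase), except Kl and Slc4a5, with SDs of 4.34 and 4.52, which differed by slightly more.

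Inside wildtype alone, the 10 genes had a median ratio of highest to lowest library of 3.19, against 1.13 over all tested genes, and 6 of the 10 (Ttr, Folr1, Slc4a5, Clic6, Cldn2 and Otx2) had a ratio of at least 2, against 5.75% of all tested genes. Kl (1.93) and Aqp1 (1.87) lay just under that ratio and Cldn2 (3.13) was the nearest above it. In the KO-labelled libraries the median ratio was 1.59, against 1.12 over all tested genes, and 3 of the 10 (Ttr, Folr1 and Slc4a5) had a ratio of at least 2, against 5.09%. Wildtype replicate 1 was the lowest wildtype library for all 10 genes, which was the case for 34.6% of tested genes. For 9 of the 10, all but Otx2, wildtype replicate 1 and KO-labelled replicate 2 were the 2 lowest of the 6 libraries, against 7.11% of tested genes. KO-labelled replicate 2 lay little below replicate 3 for Prlr (51.2 and 51.5 normalized counts) and replicate 1 for Clic6 (106 and 116). The interval of the ratio inside the KO-labelled libraries spanned 1 for Prlr (0.621 to 1.91), Clic6 (0.972 to 2.00), Kl (0.932 to 2.20) and Cldn2. Without wildtype replicate 1 the median ratio inside wildtype was 1.248, and that of Ttr was 1.32, so the wide spread inside wildtype rested on this 1 library. Wildtype replicate 1, a male library, had an estimated 16551669 reads, and KO-labelled replicate 2, a female one, 17858391, the highest of the 6. The part of depth and sex in these values was not tested.

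**Figure D2:**
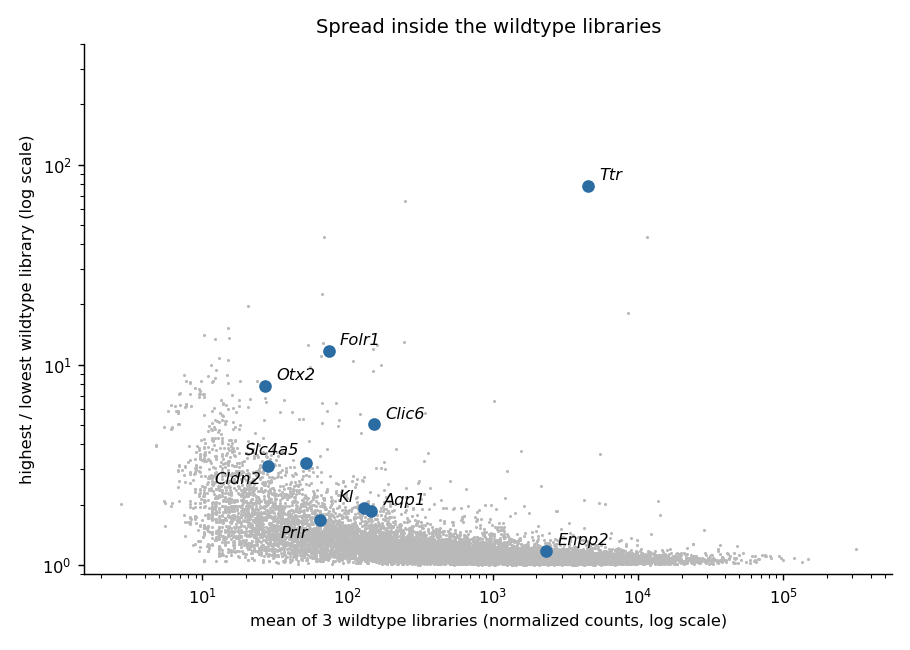
Highest over lowest wildtype library (y axis, log scale) against the mean of the 3 wildtype libraries in normalized counts (x axis, log scale) for all tested genes with no wildtype value at 0 (grey) and the 10 choroid plexus genes (blue). Ttr lies at 78.2, far above most genes of a like mean, and Enpp2 at 1.18 lies within the grey band. The y axis stops below the highest ratios, such as that of Xist (791 at a wildtype mean of 8465).

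Across the 6 libraries, the log2 values of the members moved together. Pearson's r between pairs of members ran from 0.21 to 0.99 over 45 pairs, with a median of 0.87 (median Spearman's rho 0.89), and was highest between Folr1 and Cldn2. Without Otx2 the 36 pairs had a median of 0.89, and the 9 pairs with Otx2 a median of 0.57. With wildtype replicate 1 and KO-labelled replicate 2 left out, the median over the 45 pairs was 0.91 in the other 4 libraries. The range there was 0.35 (Enpp2 and Aqp1) to 0.997. In those 4 libraries both wildtype values were above both KO-labelled values for every member but Aqp1, so this r also holds the difference between the groups. These points share their libraries and the authors' scaling, only 6 libraries enter, and no p is given. The sum of the 10 members was 2528, 11122 and 9085 normalized counts in wildtype and 5514, 2378 and 7358 in the KO-labelled libraries. Without Ttr and Enpp2, which carry most of it, the remaining 8 genes summed to 331, 951 and 741 in wildtype and 537, 421 and 590 in the KO-labelled libraries, so the low libraries were the same.

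Between the groups, the values of all 10 members overlapped, whereas the groups did not overlap for 16.3% of all tested genes. With limma, none of the 10 (against 0.411% of tested genes) passed an adjusted p of 0.05 and none (against 11.0%) had an unadjusted p under 0.05, and with limma-voom the counts were also 0 and 0. Without wildtype replicate 1, 6 of the 10 had an unadjusted p under 0.05, against 9.34% of all tested genes in that fit, all 10 log2 differences were negative, and again none passed an adjusted p of 0.05. Since the members were chosen on these values, nothing is read from these counts. Log2 differences were negative for 9 members and positive for Otx2, with a median of -0.33, against -0.00018 over all tested genes. That median ran from -0.70 without wildtype replicate 1 to -0.11 without wildtype replicate 2.

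**Figure D3:**
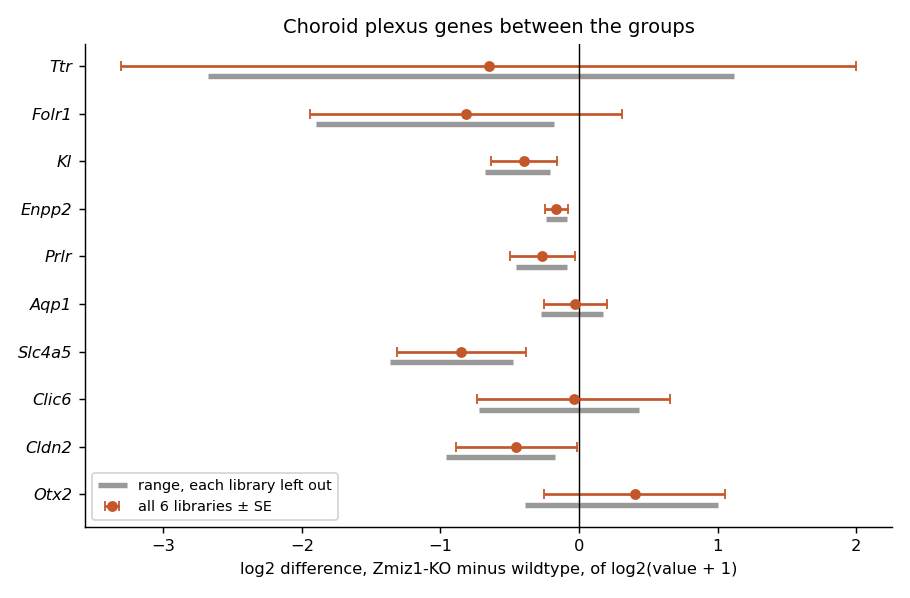
Log2 difference between the KO-labelled libraries and wildtype for each of the 10 genes (x axis, difference of log2(value + 1)). Points with lines are the estimates ± standard error from all 6 libraries, and grey bars span the estimates with each library left out in turn. The grey bars of Ttr, Aqp1, Clic6 and Otx2 cross 0, and the bar of Ttr runs from -2.68 to 1.11.

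A wider list of 43 other genes of this epithelium was followed in the same way, of which 41 were tested (Tmem72 and Krt8 were too low). None passed an adjusted p of 0.05 (limma), and 5 of 41 had an unadjusted p under 0.05, a share near the 11.0% of all tested genes. These 5 were Slc2a12, Car14, Col8a1, Rfx3 and Trpm3, and the lowest limma adjusted p was 0.110, for Trpm3. With limma-voom the counts were also 0 and 5. In 6 of 41, those 5 and Penk, the groups did not overlap, a share near the 16.3% of all tested genes. Many genes of this list are also used by neurons and other cells, and its median ratio of highest to lowest wildtype library was 1.34, with 8 of 41 genes at 2 or more (against 5.75% of all tested genes). Wildtype replicate 1 was the lowest wildtype library for 27 of the 41 (against 34.6%), and wildtype replicate 1 and KO-labelled replicate 2 were the 2 lowest of 6 libraries for 14 (against 7.11%). The list summed to 27371 to 30183 normalized counts in wildtype and 28134 to 29312 in the KO-labelled libraries, with a median log2 difference of -0.04.

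The 8 genes of the list with a wildtype ratio of at least 2 are given by role. Among the 13 genes of transport and acid-base balance, 8 of which were lowest in wildtype replicate 1 within wildtype, Kcne2, a potassium channel subunit, had 20.5, 59.7 and 33.3 normalized counts in wildtype and 19.3, 13.0 and 38.6 in the KO-labelled libraries. Kcnj13, an inward rectifier potassium channel, had 48.5, 125 and 77.3 against 61.5, 67.0 and 79.7, although 38.9% of its 75-base stretches also occur in other genes, most often Gigyf2. Car12, a membrane carbonic anhydrase, had 144, 291 and 198 normalized counts in wildtype and 191, 157 and 214 in the KO-labelled libraries. For all 3, wildtype replicate 2 was the highest of the 6 libraries, as it was for 9 of the 10 members (for Enpp2 it was replicate 3). Of the 10 secreted and extracellular genes, 9 were lowest in wildtype replicate 1 within wildtype.

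In that secreted class, 1500015O10Rik, the gene also known as Ecrg4, which encodes a secreted peptide precursor, had 79.9, 166 and 166 normalized counts in wildtype and 125, 84.4 and 113 in the KO-labelled libraries, lowest in the same libraries as Ttr. F5, coagulation factor V, had 6.08, 29.6 and 14.4 in wildtype and 25.8, 14.6 and 20.05 in the KO-labelled libraries. Outside that class, Prr32, listed under signalling and other roles, had the widest wildtype ratio among the 41 tested genes of the list, 8.33. It had 4.06, 33.8 and 16.5 normalized counts in wildtype and 9.92, 3.65 and 20.03 in the KO-labelled libraries. These are values of a few reads. The epithelial keratin gene Krt18 had 7.98, 23.1 and 28.9 against 9.92, 20.2 and 24.4, and Rdh5, a retinol dehydrogenase gene that shares 17.6% of its stretches with Bloc1s1 and others, ran the other way, lowest in wildtype replicate 2 (57.4, 27.3 and 45.3 against 73.1, 62.8 and 49.1). Tmem72, which was not tested and was picked out after its values were seen, had 4.04, 52.7 and 49.5 normalized counts in wildtype and 7.94, 5.47 and 4.03 in the KO-labelled libraries, low in 4 libraries and high in wildtype replicates 2 and 3.

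Of the tested genes that are not members, 37 (0.234%) followed the mean log2 profile of the members with r of at least 0.95 over the 6 libraries, and the 15 of these with the widest spread are named. Of the wider list, 2 were among the 37, Prr32 and 1500015O10Rik. Genes of pigment cells, Trpm1 and Tyrp1, followed them, with 4.81, 39.97 and 26.1 normalized counts in wildtype and 21.6, 7.26 and 20.3 in the KO-labelled libraries for Trpm1, and 4.06, 25.2 and 24.7 against 9.94, 7.31 and 14.0 for Tyrp1. Pmel and Best1, the most abundant genes of the retinal pigment list described below, had other orders of libraries. The heat shock gene Hspa1b, with r of 0.99, had 92.4, 533 and 397 normalized counts in wildtype and 240.0, 142 and 357 in the KO-labelled libraries. Upk1b, Armc4, Ctf1, Fam173b, Gm6297, D930048N14Rik, Slc25a53, Trnau1ap, Stk33 and A930015D03Rik complete the 15, and the log2 SD of the last in order, Stk33, was 0.19. With Ttr alone as the profile, 48 genes passed the same r, and 10 of them were among the 37, which is 27.0% of the 37 and 20.8% of the 48. With 6 points, most of them fixed by which libraries are low, a high r is a description of the library pattern.

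**Figure D4:**
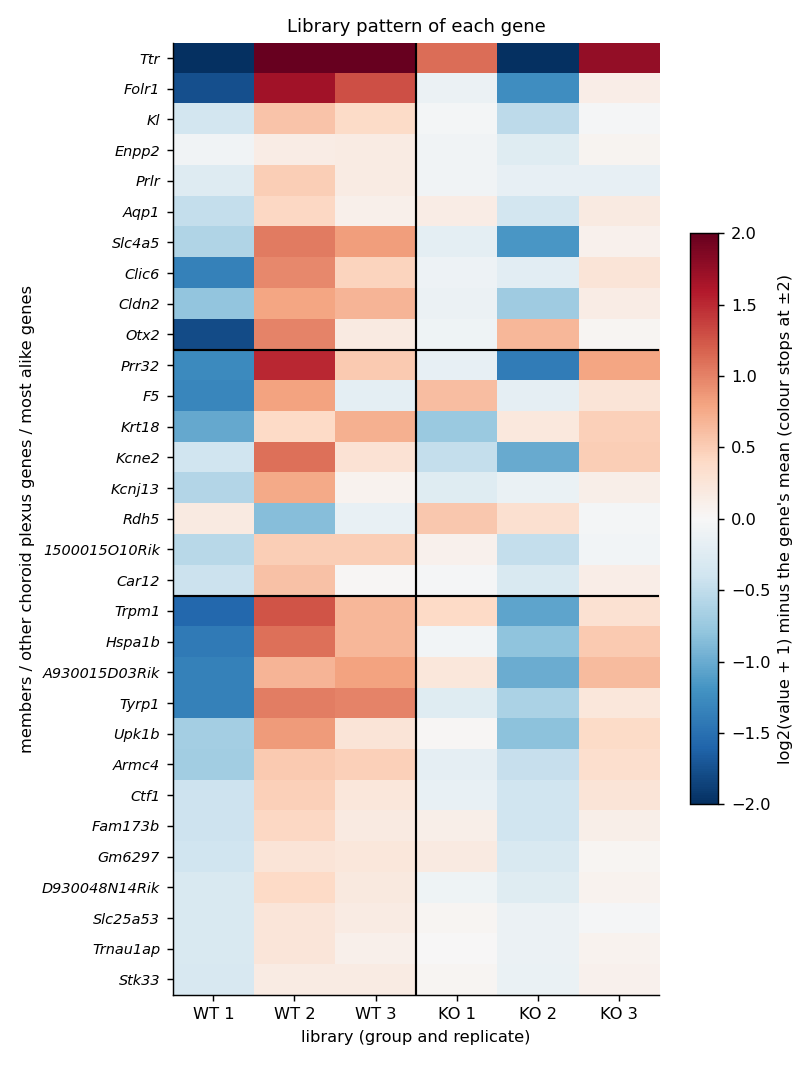
Library pattern of the 10 members (top), the 8 named genes of the wider list (middle) and the genes most like the members (bottom), as log2(value + 1) minus the mean of the gene over the 6 libraries, with colour stopping at ±2. Wildtype replicate 1 and KO-labelled replicate 2 are blue in most rows, Rdh5 runs the other way, and Otx2 is red in KO-labelled replicate 2.

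Other tissue that a cortical dissection can hold was followed by marker lists. The 10 ependymal genes summed to 702, 997 and 935 normalized counts in wildtype and 923, 862 and 951 in the KO-labelled libraries. The sum was thus lowest in wildtype replicate 1 and lowest of its group in KO-labelled replicate 2, the libraries in which Ttr was low, but by far less. Their most abundant gene, Foxj1, the master factor of motile cilia, had 323, 383 and 352 normalized counts in wildtype and 379, 356 and 338 in the KO-labelled libraries, while Rsph1 had 62.2, 170 and 159 against 152, 123 and 161. The 8 striatal genes summed to 9448, 12545 and 13187 in wildtype and 14496, 15154 and 13557 in the KO-labelled libraries, lowest in wildtype replicate 1 and highest in KO-labelled replicate 2. The 8 cortical genes ran the other way, from 45053 in wildtype replicate 1 to 36286 in KO-labelled replicate 2. Wildtype replicate 1 thus had the lowest or nearly the lowest choroid plexus, ependymal and striatal sums and the highest cortical sum, while KO-labelled replicate 2, equally low in Ttr, had the highest striatal and lowest cortical sum. Their part in the values of the members was not tested.

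Of these lists, the 12 leptomeningeal genes had positive log2 differences in all 12 (against 7890 of 15800 tested genes), with a median of 0.26. Within wildtype, 11 of the 12 were lowest in wildtype replicate 1 (against 34.6% of all tested genes). Their sums were 12964 to 14938 normalized counts in wildtype and 16281 to 17658 in the KO-labelled libraries. Col1a2, a fibrillar collagen chain, was the only one to pass (against 0.411% of all tested genes). It rose from 4066 ± 244 to 5058 ± 132 (SD, n = 3 each), with a limma adjusted p of 0.00464. The 4 genes shared by meninges and choroid plexus (Igf2, Igfbp2, Slc13a4 and Bmp7) summed to 10998 to 13198 normalized counts in wildtype and 13870 to 15241 in the KO-labelled libraries, and none passed (lowest limma adjusted p 0.114). Igf2 had 7140, 8829 and 9054 normalized counts in wildtype and 9980, 11091 and 9624 in the KO-labelled libraries, so that KO-labelled replicate 2, at the bottom for Ttr, was at the top for Igf2. In the cortical list all 8 log2 differences were negative (against 7910 of 15800 tested genes), but that of its most abundant gene, Slc17a7, was only -5.46e-06 (standard error 0.042). In this list 2 genes passed (against 0.411% of all tested genes), Rorb (limma adjusted p 0.00856) and Emx1 (limma adjusted p 0.0150), named after their values were seen.

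None of the striatal, ependymal, retinal pigment, oligodendrocyte, blood, endothelial, thalamic and hippocampal genes passed (limma), with 2 of 8, 0 of 10, 1 of 3, 3 of 9, 0 of 5, 1 of 8, 0 of 6 and 2 of 6 tested genes at an unadjusted p under 0.05, and none passed with limma-voom. The counts at an unadjusted p under 0.05 were 8 of 12 leptomeningeal genes, 3 of the 4 shared genes and 4 of 8 cortical genes, against 11.0% of all tested genes. Of the 6 retinal pigment genes, followed because that tissue expresses Ttr and Otx2 as well, Pmel, which encodes a melanosome protein, was the most abundant. It had 62.1, 67.2 and 99.0 normalized counts in wildtype and 43.6, 25.7 and 24.4 in the KO-labelled libraries, so that the groups did not overlap, with a log2 difference of -1.28 (limma adjusted p 0.0627). Best1, an anion channel gene, had 28.2, 29.5 and 33.01 against 41.6, 51.1 and 30.3, highest in KO-labelled replicate 2. Of the defining markers, Rpe65 was listed at 0 in 4 of 6 libraries and at no more than 2.07 normalized counts in the others, and Mlana was listed at 0 in 4. The 7 blood genes summed to 8393 to 12217 normalized counts in wildtype and 8066 to 9140 in the KO-labelled libraries, and the 8 endothelial genes to 7723 to 8006 and 7623 to 8307. The 6 thalamic genes summed to 3909 to 3967 and 3897 to 4011, and the 6 hippocampal genes to 2178 to 2608 and 2097 to 2387. These sums varied less than that of the members, which ran from 2378 to 11122 normalized counts over the 6 libraries. Inside the blood list, Hba-a2 had 276, 945 and 1819 normalized counts in wildtype and 1183, 507 and 2047 in the KO-labelled libraries. Its 2 lowest libraries were those of Ttr, which held for 1 of the 5 tested blood genes (against 7.11% of all tested genes). Hba-a1, the most abundant gene of that list, was lowest in KO-labelled replicate 3. Their part in the values of the members was not tested.

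**Figure D5:**
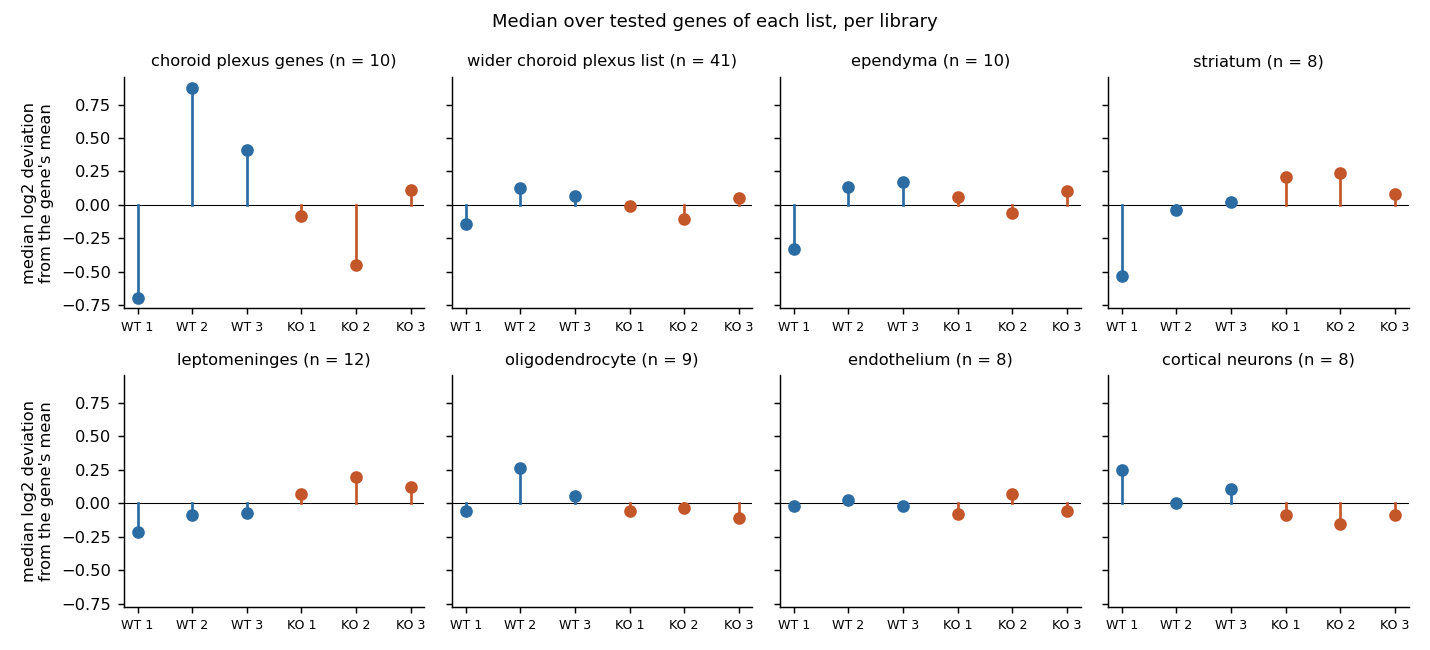
Median over the tested genes of each marker list of the log2 value minus the mean of the gene over the 6 libraries (y axis), for each library (x axis, WT for wildtype and KO for KO-labelled). The choroid plexus genes range from -0.69 in wildtype replicate 1 to 0.88 in wildtype replicate 2, more widely than any other list shown, and the medians of the wider choroid plexus, ependymal, striatal and leptomeningeal lists are also lowest in wildtype replicate 1.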

How the data were processed

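Total RNA of P7 cortices was sequenced after preparation with a kit that does not mark strand, with 3 libraries per genotype. In Illumina BaseSpace, the authors mapped reads with STAR (genome build mm10) and normalized the count of each gene with DESeq2. Versions and the gene annotation are not given in the sources used here. The deposited table holds these values as a normalized signal, called normalized counts in the text. In each library the smallest values were multiples of a step (1.83 to 2.11), which large ones were not, so whole reads were not recovered, no test on read counts was run, and reads per gene are estimates (value divided by the step).

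Genes with at least 10 normalized counts in at least 3 libraries (15800) were compared as log2(value + 1), which understates differences of low genes, with limma (version 3.58.1, R version 4.3.3, prior variance following the mean, robust), two-sided, with Benjamini-Hochberg adjustment over all of them. No covariate was used. An exact permutation test of 3 against 3 cannot give a p below 0.1. Intervals of ratios are exact binomial at 95% and cover counting error only.

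The members and the lists (wider choroid plexus, ependyma, leptomeninges, genes shared by choroid plexus and meninges, retinal pigment, oligodendrocyte, blood, endothelium, thalamus, striatum, hippocampus and cortex) were chosen with earlier results of these data known. Named are all members, Zmiz1, and genes of the wider list past the threshold or with a wildtype ratio of at least 2. So are up to 15 genes most like the members in pattern and up to 3 of the most abundant genes of each other list. Outside this rule, marker genes near 0 or past the threshold and genes sharing the low libraries of Ttr are named. Coordinates, exon lengths and shares of 75-base stretches found in other genes are from GENCODE on GRCm38, and promoter windows from RefSeq on GRCm38.p6. Alternatives were other pseudocounts, scalings (trimmed mean, upper quartile) and filters, no robust estimation, limma-voom, a replicate block, and leaving out each library in turn. The procedure was tested on simulated data.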

Additional observations from a re-analysis of the deposited data

How the results depend on the processing

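No member passed an adjusted p of 0.05 (limma) under any of the 15 alternatives. With all libraries kept, no other pseudocount, scaling, filter or fit turned the direction of a member, and the median log2 difference of the members stayed between -0.40 and -0.29. Leaving out a library gave wider ranges. The log2 difference ran from -2.68 to 1.11 for Ttr, from -0.27 to 0.17 for Aqp1, from -0.72 to 0.44 for Clic6, from -0.39 to 1.00 for Otx2, from -0.074 to 0.98 for F5, from -1.27 to 0.12 for Prr32, from -0.57 to 0.32 for Krt18, from -0.50 to 0.17 for Kcnj13 and from -0.37 to 0.14 for Car12. The median of the members ran from -0.70 to -0.11. The ratio of highest to lowest wildtype library ran from 1.32 to 78.2 for Ttr and from 1.248 to 3.19 for the median of the members, lowest in both cases without wildtype replicate 1. The count of all genes past the threshold, 65, was 17 without robust estimation and 12 to 151 with a library left out (lowest without KO-labelled replicate 3, highest without KO-labelled replicate 2, and 30 without wildtype replicate 1 and 17 without KO-labelled replicate 1). The cause was not tested.

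With the replicate block, 168 of all genes and 1 gene of the wider list passed, against 65 and 0 without it, and no member did. Same-numbered libraries did not deviate together over genes (r of -0.0051, -0.11 and -0.0063). Wildtype replicate 1 and KO-labelled replicate 2, both low in Ttr, had an r of only 0.023. An r near 0 over all genes therefore cannot show whether libraries share a litter or a batch, and the labels do not say. The low levels of Folr1, Slc4a5, Cldn2, Otx2 and Prr32, at few estimated reads per library, limit what can be said of their ratios, and 3 libraries per group limit every comparison.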

Other observations

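The pair of low libraries seen for Ttr was shared by genes on other chromosomes of GRCm38 that are not known for the choroid plexus. It was noticed after the values were seen, and it was not tested. Of the 48 genes with r of at least 0.95 with Ttr, 46 could be placed, and 8 of them, 17.4%, were on chromosome 17, which holds 4.90% of the tested genes that are not members, and 7, 15.2%, were on chromosome 12, which holds 3.57%. Of the 8 on chromosome 17, 6 lie between bases 30215524 and 36121465, and Fam98a (from base 75537086) and Mettl4 (from base 94722590) lie farther along. Among the 6, Glo1, which encodes a glyoxalase (bases 30584936 to 30626871), had 2450, 5184 and 5156 normalized counts in replicates 1, 2 and 3 of wildtype and 4127, 2361 and 5331 in KO-labelled replicates 1, 2 and 3. Its neighbour Btbd9 (bases 30215524 to 30576488) had 3834, 4884 and 4817 against 4744, 3882 and 5132. Wildtype replicate 1 and KO-labelled replicate 2 were the lowest for both.

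Nearer to the genes of the major histocompatibility complex, H2-T10 (bases 36115876 to 36121465) had 6.04, 339 and 396 normalized counts in wildtype and 223, 19.2 and 406 in the KO-labelled libraries. Gm8801, from 35947246 to 35952297, was listed at 0 in wildtype replicate 1 and in KO-labelled replicate 2 and at 104 to 168 normalized counts in the other 4 libraries. A930015D03Rik (bases 35994453 to 36038435) had 38.3, 160 and 176 normalized counts in wildtype and 117, 49.5 and 155 in the KO-labelled libraries. Elsewhere in the genome, Il11ra2 was listed at 0 in the same pair of libraries and at 91.3 to 329 in the others. With the mean profile of the members in place of Ttr, 3 of the 36 placed genes, 8.33%, were on chromosome 17. These genes were picked by their r with Ttr, so that they share its low libraries follows from the choice. The part of either in the other was not tested.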
